A study of Mus musculus with 6 samples.

Results

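The Kruppel-like factors described here are 8 zinc finger transcription factor genes, Klf2, Klf3, Klf4, Klf6, Klf9, Klf10, Klf12 and Klf13, chosen by name as members of 1 family. All 8 were found among the 12151 genes of a table of mouse RNA-seq values. The libraries came from cultured glioma cells of either of 2 forms, with 3 libraries each. The mNS libraries were made at passages 72, 77 and 85 from cells labelled as stem-like glioma cells, which grew as neurospheres in serum-free medium with B-27 supplement, EGF, basic FGF and heparin. The GL261 libraries were made at passages 17, 33 and 34 from a mouse glioma line grown in medium with fetal bovine serum and labelled as differentiated glioma cells; for the last of these the title gives 34 and the passage field 33. Both media held penicillin, streptomycin, Hepes, glutamine and beta-mercaptoethanol, and all cells were harvested in log phase. Whether the 3 libraries of each group were grown as separate cultures is not in the labels, and the p-values then measure no more than the scatter among these libraries, which may be technical. The labels do not say whether mNS cells were derived from GL261. Cell form, medium and passage range differ together and cannot be told apart.

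Kruppel-like factors bind GC-rich and CACCC sequences through zinc fingers at their carboxyl end, while their amino-terminal parts differ and set whether a factor activates or represses. The family falls into subgroups by cofactor: Klf2, Klf4 and Klf6 are mostly activators that recruit acetyltransferases, Klf3 and Klf12 repress through the CtBP corepressors, and Klf9, Klf10 and Klf13 repress through Sin3a. Several members are immediate early genes that respond to serum, growth factors or hormones, and Klf4 is a member of the factor set that reprograms somatic cells to pluripotency.

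Between 12534422 and 14225175 reads per library fell in the listed genes, and values are in CPM, reads scaled to library size, in which 1 read was worth 0.0708 to 0.0773 CPM. The defining neural progenitor genes Sox2 and Nes were found in both groups and Olig1, Olig2 and Fabp7 stood higher in mNS, whereas Prom1 and Egfr were not among the listed genes. Of 5 astrocyte markers 3 were listed, all lower in mNS. Of 8 endothelial markers 1 was listed, Flt1, at 26.1 to 31.3 CPM in mNS and 24.7 to 42.5 CPM in GL261. Of 8 leukocyte and microglia markers 2 were listed, with summed levels of 6.87 to 9.51 CPM in mNS and 4.05 to 5.44 CPM in GL261. These 2 went opposite ways: Cd68 averaged 8.09 CPM in mNS and 2.95 CPM in GL261, and Csf1r had 2 reads in mNS and 68 in GL261. Of 6 fibroblast markers 3 were listed, with sums of 93.8 to 229 CPM in mNS and 259 to 424 CPM in GL261. Of these, Col3a1 averaged 146 CPM in mNS and 230 CPM in GL261, and its libraries overlapped between the groups. Col1a1 averaged 6.18 CPM in mNS and 127 CPM in GL261, and Pdgfrb 0.123 and 2.41 CPM, both lower in mNS without overlap. The part of other cells in the results was not tested.

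Of the 8 Kruppel-like factors, 3 rose in mNS relative to GL261 (Klf6, Klf10 and Klf12), 3 fell (Klf2, Klf3 and Klf4), and Klf9 and Klf13 did not pass the test. The test was limma on log2(CPM + 1), two-sided, with Benjamini-Hochberg adjustment over 12006 genes and a call at an adjusted p under 0.05. It called 64.3% of all tested genes, 32.2% higher and 32.1% lower in mNS, so that 6 calls among 8 members lie near the background. The median log2 difference of the members was -0.03, beside -0.00271 over all tested genes, and the median absolute log2 difference was 1.00, beside 0.40. The same 6 members had no overlap between the mNS and GL261 values, as had 69.9% of all tested genes. With a 2-fold change taken as the null hypothesis, Klf4 and Klf12 were called, beside 11.8% of all tested genes. In these bulk samples, fewer cells that express a gene and less of its RNA per cell cannot be told apart.

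**Figure D1:**
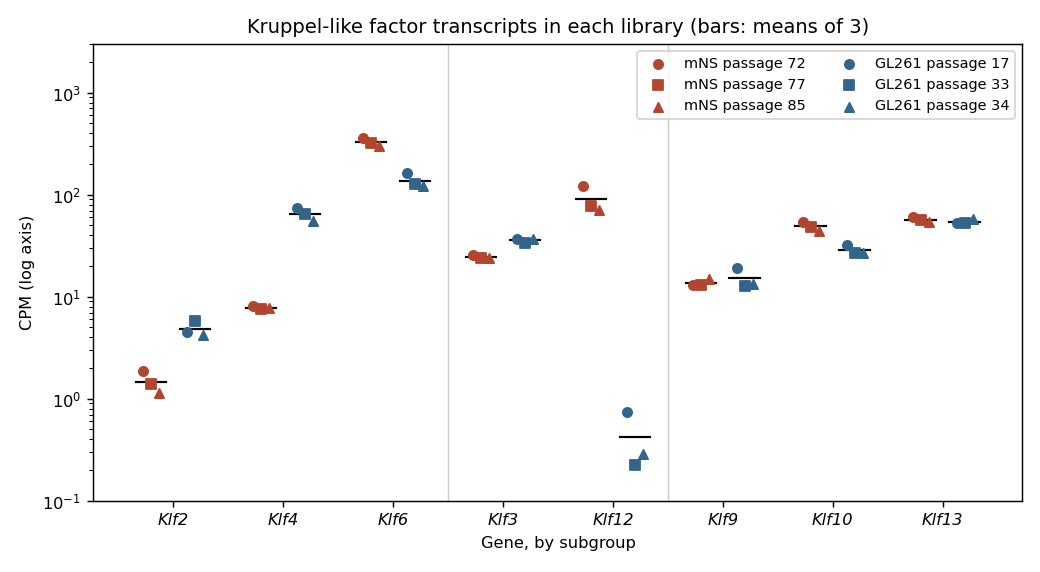
Values of the 8 Kruppel-like factor genes in CPM on a log axis, with 1 point per library (mNS on the left of each pair, GL261 on the right, shapes for passages) and a bar at the mean of 3 libraries. Klf12 lies between 70.2 and 123 CPM in mNS and between 0.224 and 0.745 CPM in GL261, Klf4 lies lower in every mNS library than in any GL261 library, and the points of Klf9 and Klf13 overlap.

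Among the activators, Klf4 and Klf2 fell and Klf6 rose. Klf4 (chromosome 4, 55527143 to 55532466, minus strand, in GRCm38, the assembly of mm10), a factor of epithelia and endothelium as well as of reprogramming, had 8.08, 7.50 and 7.79 CPM in mNS at passages 72, 77 and 85, against 74.7, 64.3 and 54.7 CPM in GL261 at passages 17, 33 and 34. The mNS libraries lay within 1.08-fold of each other, and the highest of them was far below the lowest GL261 library. Mean Klf4 was 7.79 ± 0.289 CPM in mNS and 64.6 ± 10.0 CPM in GL261 (SD, n = 3 each), 8.29-fold lower in mNS, and its log2 difference was -2.89 ± 0.12 (SE; adjusted p = 2.11e-07 in limma). Its absolute log2 difference was larger than that of 96.5% of tested genes.

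Klf2 (chromosome 8, 72319033 to 72321656, plus strand), known for T cell quiescence and for the response of endothelium to flow, was scarce in both groups. Its levels were 1.89, 1.39 and 1.13 CPM in mNS and 4.47, 5.83 and 4.19 CPM in GL261, which rest on 59 reads over the mNS libraries and 196 over the GL261 libraries. The highest mNS library stayed below the lowest GL261 library. The mean was 1.47 ± 0.383 CPM in mNS and 4.83 ± 0.877 CPM in GL261 (SD, n = 3 each), 3.28-fold lower in mNS, and the log2 difference was -1.24 ± 0.18 (SE; adjusted p = 0.000306 in limma). On the log2(CPM + 1) scale this difference is understated, since the pseudocount is close to the mNS level.

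Klf6 (chromosome 13, 5861482 to 5870394, plus strand), a widely expressed activator studied as a tumour suppressor in several cancers, went the other way. It had 360, 321 and 301 CPM in mNS and 162, 127 and 121 CPM in GL261, without overlap. The mean was 327 ± 29.9 CPM in mNS and 136 ± 22.1 CPM in GL261 (SD, n = 3 each), 2.40-fold higher in mNS (log2 difference 1.26 ± 0.11, SE; adjusted p = 2.08e-05 in limma). The 3 activators thus moved in different directions, and the one that rose was the most abundant of them in both groups.

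The promoters of these 3 genes are shown because their levels moved in opposite directions in the same cultures; each is the RefSeq window of 250 bases before to 50 after the start (GRCm38.p6), read 5′ to 3′ on the gene's strand. Capitals mark all matches, on either strand, to the searched motifs: the GC box (GGGCGG), the CACCC box (CCACCC), the CCAAT box (CCAAT), the E box (CACGTG), the TATA box (TATAAA), the AP-1 site (TGANTCA), the forkhead site (GTAAACA), the CArG box and the MEF2 site. Touching or overlapping matches run together.
Klf4 promoter, chr4:55532426-55532725, minus strand: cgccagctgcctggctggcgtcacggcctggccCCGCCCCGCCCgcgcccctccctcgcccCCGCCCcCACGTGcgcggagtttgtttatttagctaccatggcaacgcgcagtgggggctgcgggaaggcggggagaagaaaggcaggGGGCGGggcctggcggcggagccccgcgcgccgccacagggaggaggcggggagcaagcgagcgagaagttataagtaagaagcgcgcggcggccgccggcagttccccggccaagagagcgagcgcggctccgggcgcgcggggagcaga
Klf2 promoter, chr8:72318812-72319111, plus strand: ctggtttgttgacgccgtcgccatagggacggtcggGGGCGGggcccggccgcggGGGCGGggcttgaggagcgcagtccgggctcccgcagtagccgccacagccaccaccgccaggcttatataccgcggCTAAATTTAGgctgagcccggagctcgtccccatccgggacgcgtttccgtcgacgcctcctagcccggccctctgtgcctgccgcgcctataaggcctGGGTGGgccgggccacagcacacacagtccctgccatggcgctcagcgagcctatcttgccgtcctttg
Klf6 promoter, chr13:5861239-5861538, plus strand: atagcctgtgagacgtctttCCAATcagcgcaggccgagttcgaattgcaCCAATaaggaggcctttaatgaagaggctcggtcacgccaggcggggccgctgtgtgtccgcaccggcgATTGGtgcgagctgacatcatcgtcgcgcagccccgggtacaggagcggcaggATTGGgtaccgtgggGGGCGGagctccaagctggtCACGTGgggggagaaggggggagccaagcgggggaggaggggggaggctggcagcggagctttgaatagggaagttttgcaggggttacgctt
The Klf4 window holds 4 GC boxes and 1 E box, and 74.3% of its bases are G or C. The Klf2 window holds 2 GC boxes, 1 CACCC box and, 118 bases before the start, 1 MEF2 site, the kind of element through which the kinase ERK5 acts on this gene in endothelium. The Klf6 window holds 4 CCAAT boxes, 1 GC box and 1 E box. Of 32851 RefSeq promoter windows of the same length, 35.7% hold a GC box, 31.5% a CACCC box, 37.4% a CCAAT box, 7.15% an E box and 3.19% a MEF2 site. A match describes letters and does not show binding, and windows of high GC content hold GC boxes more readily; the median GC content of all windows was 52.7%.

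Genes that act on Klf2 and Klf4 were counted from lists chosen with earlier results known. Of 8 genes of the ERK5 and MEF2 pathway 3 rose and 2 fell (median log2 difference 0.11, beside -0.00271 over all tested genes), and the 62.5% called lie near the 64.3% of all tested genes. The transcription factor gene Mef2c stood at 7.31 ± 3.03 CPM in mNS and 88.6 ± 9.31 CPM in GL261 (SD, n = 3 each), a log2 difference of -3.50 (limma adjusted p = 6.46e-06). Mef2a rose (62.6 ± 11.5 CPM in mNS and 35.5 ± 0.994 CPM in GL261), as did Mapk7, which encodes ERK5 itself (log2 difference 0.40), and the scarce Mef2b (1.03). The MEF2 genes thus differed in direction from member to member. Of 3 FoxO factors listed, which activate Klf2 in lymphocytes, 2 rose (66.7% called, beside 64.3% of all tested genes). Foxo1 had 17.4 ± 1.37 CPM in mNS and 6.75 ± 0.877 CPM in GL261, and Foxo4 had 73.4 ± 1.70 CPM in mNS and 41.8 ± 6.69 CPM in GL261 (SD, n = 3 each). Of 5 ubiquitin ligase genes whose products act on Kruppel-like factors, Wwp1 (log2 difference 0.39) and Vhl (0.35) rose and Smurf1 (-1.11) fell. The 60% called lie near the share of all tested genes.

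Klf12 showed the largest difference of the 8 members and, on the log2(CPM + 1) scale, of all listed family genes; on reads its ratio (215) cannot be set apart from that of Klf15 (200, in the other direction), since their counting intervals overlap. Klf12 (chromosome 14, 99870632 to 100284679, minus strand, a gene spanning 414048 bases), a CtBP-binding repressor first described for its action on the AP-2 alpha gene, had 123, 77.9 and 70.2 CPM in mNS, against 0.745, 0.224 and 0.289 CPM in GL261. The GL261 values are 10, 3 and 4 reads, while the mNS libraries together held 3626 reads. Mean Klf12 was 90.3 ± 28.4 CPM in mNS and 0.420 ± 0.284 CPM in GL261 (SD, n = 3 each), 215-fold higher in mNS, and the ratio of summed scaled reads had an exact binomial (Clopper-Pearson) 95% interval of 134 to 370 that covers counting error only. Without GL261 replicate 1, the passage 17 library that gave 10 of the 17 GL261 reads, the fold was 352. The log2 difference was 5.98 ± 0.22 (SE; adjusted p = 1.17e-07 in limma), which ranked at position 37 of 12006 by absolute size.

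Klf3 (chromosome 5, 64803388 to 64832901, plus strand), the CtBP-binding repressor known from blood and fat cells, moved the other way and by less. It had 25.4, 23.9 and 23.7 CPM in mNS and 36.9, 33.5 and 36.8 CPM in GL261, without overlap. The mean was 24.4 ± 0.948 CPM in mNS and 35.7 ± 1.96 CPM in GL261 (SD, n = 3 each), 1.47-fold lower in mNS (log2 difference -0.53 ± 0.08, SE; limma adjusted p = 0.000568). A noncoding transcript on the opposite strand, Gm20033, shares 3.59% of the exon bases of Klf3 in GENCODE M21; the other 7 members share exon bases with no other gene there. Klf8, a further CtBP-binding factor outside the 8 members, rose with Klf12: 7.33 ± 0.679 CPM in mNS and 0.718 ± 0.415 CPM in GL261 (SD, n = 3 each), or 296 and 29 reads. Its log2 difference was 2.30 ± 0.20 (SE; adjusted p = 1.47e-05 in limma).

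The RefSeq window of Klf12 is shown because its base composition differs from the windows of the other members, but it lies inside the gene. The capitals mark its only match, a TATA box on the opposite strand.
Klf12 promoter, chr14:100149747-100150046, minus strand: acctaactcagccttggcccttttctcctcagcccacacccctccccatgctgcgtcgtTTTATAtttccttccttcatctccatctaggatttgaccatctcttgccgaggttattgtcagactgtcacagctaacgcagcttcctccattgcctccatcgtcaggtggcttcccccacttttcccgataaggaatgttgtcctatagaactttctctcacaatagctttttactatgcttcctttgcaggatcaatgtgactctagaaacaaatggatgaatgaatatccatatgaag
No GC or CACCC box is among its letters, and 45.7% of its bases are G or C, against 63.0% to 76.7% in the 6 other members with a window. The start used by RefSeq lies 134883 bases downstream of the outermost start of the gene in GENCODE M21. Those of the 6 other members with a window lie within 133 bases of theirs. The Klf12 window thus describes only this internal start, and its composition is not that of the region at the outermost start. Whether the window acts as a promoter, and which start the reads came from, was not measured. Klf10 has no window in the table of promoters.

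Genes next to Klf12 were also higher in mNS, a pattern chosen for description after the values were seen. Of 10 tested genes within 2 megabases 9 rose and 0 fell, where 32.2% of all tested genes rose, and the tenth, Lmo7, had a log2 difference of 0.18 without a call. Their median log2 difference was 0.55. Dach1, which encodes a nuclear corepressor, had 17.7 CPM in mNS and 0.0482 CPM in GL261 on average, a log2 difference of 4.15; the other 9, among them the neighbouring family gene Klf5 (0.46), the exosome nuclease gene Dis3 (0.81) and the Rab regulator gene Tbc1d4 (0.97), ranged from 0.18 to 0.97. On the log2(CPM + 1) scale Klf12 itself exceeded every neighbour. By the ratio of group means Dach1 exceeded Klf12, which averaged 90.3 CPM in mNS and 0.420 CPM in GL261. The pseudocount shrinks both differences, and both GL261 means are close to 0. Of 5 tested neighbours of Klf6 within the same distance 4 rose and 0 fell (median 0.45), while neighbours of Klf4 moved both ways, 2 up and 3 down of 11. Neighbours of Klf10, which rose itself, were 2 up and 7 down of 16. Those of Klf2 were 10 up and 27 down of 64, and those of Klf3 8 up and 7 down of 18. For Klf9 they were 4 up and 2 down of 10, and for Klf13 4 up and 4 down of 9. DNA copy number was not analysed here, and its part in these differences was not tested.

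**Figure D2:**
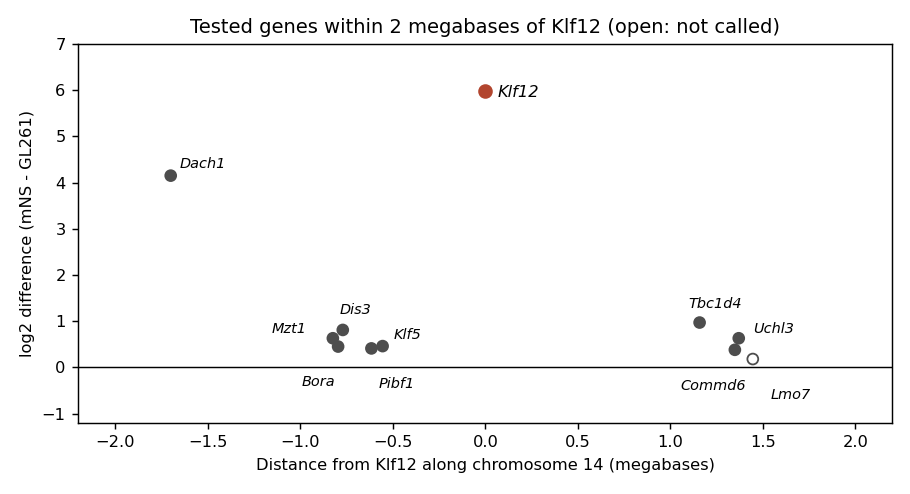
Log2 difference (mNS minus GL261, log2(CPM + 1) scale, vertical axis) of the tested genes within 2 megabases of Klf12 against distance along chromosome 14 in megabases (horizontal axis), with Klf12 in red and an open point for the gene that was not called. All 10 neighbours lie above 0, 9 of them between 0.18 and 0.97 and Dach1 at 4.15, below Klf12 at 5.98.

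Of 14 corepressor and coactivator genes through which the family works 2 rose and 7 fell (median log2 difference -0.15). The share called, 64.3%, equals that of all tested genes. The acetyltransferase genes Kat2b and Kat2a fell (log2 differences -1.25 and -0.51), as did Sap30, a subunit of the Sin3 complex (-1.07), while Ep300, the acetyltransferase p300, rose (0.48). The corepressor genes Ctbp1, Ctbp2 and Sin3a, named after their values were seen, did not pass the test. Sin3b, also named after its values were seen, rose (log2 difference 0.40, limma adjusted p = 0.000652). Ctbp1 had 314 ± 19.4 CPM in mNS and 312 ± 53.6 CPM in GL261, and the 95% interval of its log2 difference was -0.25 to 0.30. Ctbp2 had 62.3 ± 0.261 CPM in mNS and 59.4 ± 4.21 CPM in GL261 (-0.10 to 0.24). Sin3a had 87.5 ± 1.57 CPM in mNS and 88.7 ± 6.66 CPM in GL261 (-0.18 to 0.15; SD, n = 3 each).

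Of the Sin3a-binding members, Klf10 rose and Klf9 and Klf13 did not pass the test. Klf10 (chromosome 15, 38291463 to 38300706, minus strand), also known as TIEG1, the TGF-beta inducible early gene, had 54.0, 47.9 and 44.5 CPM in mNS and 31.8, 27.1 and 26.9 CPM in GL261, without overlap. Its mean was 48.8 ± 4.81 CPM in mNS and 28.6 ± 2.77 CPM in GL261 (SD, n = 3 each), 1.71-fold higher in mNS (log2 difference 0.75 ± 0.10, SE; adjusted p = 0.000260 in limma). Klf11 (TIEG2), its closest relative and outside the 8 members, also rose, with 17.3 ± 3.37 CPM in mNS and 9.87 ± 0.999 CPM in GL261 (log2 difference 0.74, adjusted p = 0.00284); the difference between these 2 changes was not tested.

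Of 11 genes of the TGF-beta pathway, which gives Klf10 its other name, 2 rose and 7 fell, so that 81.8% were called, beside 64.3% of all tested genes (32.1% lower). Their median log2 difference was -0.51, beside -0.00271 over all tested genes. The ligand gene Tgfb2 had 0.124 ± 0.158 CPM in mNS and 36 ± 5.22 CPM in GL261, and Tgfb1 had 0.601 ± 0.174 CPM in mNS and 5.10 ± 0.289 CPM in GL261 (SD, n = 3 each). Smad7, the inhibitory Smad whose promoter Klf10 is reported to repress, stood at 0.975 ± 0.361 CPM in mNS and 20.3 ± 1.39 CPM in GL261 (log2 difference -3.44, limma adjusted p = 3.37e-07). The remaining ligand gene, Tgfb3, rose, with 47.3 ± 11 CPM in mNS and 15.7 ± 6.01 CPM in GL261 (log2 difference 1.58).

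Klf9 (chromosome 19, 23141226 to 23168134, plus strand), a target of glucocorticoid and thyroid hormone receptors in neural cells, had 13.1, 12.9 and 15 CPM in mNS and 19.3, 12.8 and 13.4 CPM in GL261. The groups overlapped, and the passage 17 library of GL261 was the high value. The log2 difference was -0.12 with a 95% interval of -0.48 to 0.24 (limma adjusted p = 0.530), and without that library it was 0.06. Differences inside that interval, up to about the size of the Klf3 difference on the low side, could not be seen at this spread.

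Genes of the steroid and thyroid hormone response were counted beside Klf9. Of 7 listed genes 4 rose and 1 fell, or 71.4% called, beside 64.3% of all tested genes (32.2% higher). Their median log2 difference was 0.62, beside -0.00271 over all tested genes. The kinase gene Sgk1 had 173 ± 16.7 CPM in mNS and 18.5 ± 2.02 CPM in GL261 (log2 difference 3.16, limma adjusted p = 5.42e-08), the thyroid hormone receptor gene Thra 29.2 ± 1.49 CPM in mNS and 10.9 ± 1.13 CPM in GL261 (1.34), and the clock gene Per1 (0.81) and the glucocorticoid target Tsc22d3 (0.62) also rose. The gene that fell was Nr3c1, the glucocorticoid receptor, named after its values were seen, with 64.3 ± 0.898 CPM in mNS and 92 ± 7.79 CPM in GL261.

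Klf13 (chromosome 7, 63886351 to 63938915, minus strand), which activates the chemokine gene Ccl5 in T cells, had 60.7, 56.8 and 53.5 CPM in mNS and 52.7, 53.1 and 57.8 CPM in GL261. The ranges overlapped in part: the highest library was mNS passage 72, and GL261 passages 17 and 33 lay below all mNS libraries. The mean was 57.0 ± 3.59 CPM in mNS and 54.5 ± 2.82 CPM in GL261 (SD, n = 3 each), and the log2 difference was 0.06 with a 95% interval of -0.12 to 0.24 (limma adjusted p = 0.508). The interval leaves out differences as large as those of the 6 called members, of which that of Klf3 was the smallest.

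**Figure D3:**
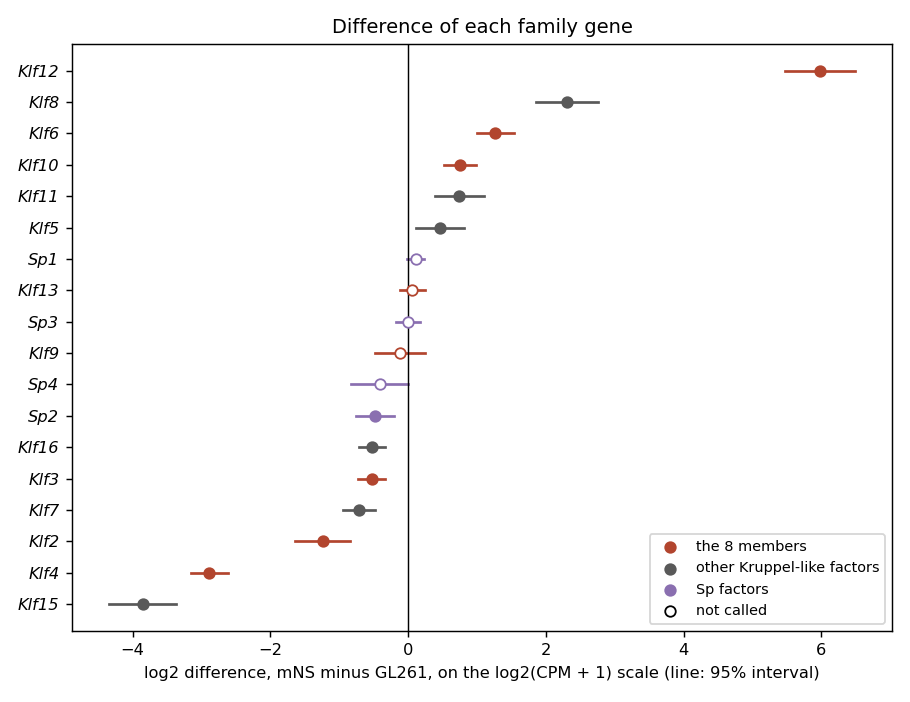
Log2 differences (mNS minus GL261, log2(CPM + 1) scale) with 95% intervals from limma for the 14 listed Kruppel-like factors and 4 listed Sp factors, ordered by value; open points were not called. Klf12 (5.98) and Klf15 (-3.85) lie at the ends, and the intervals of Klf9, Klf13, Sp1, Sp3 and Sp4 reach 0.

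The rest of the family was as divided as the 8 members. Of 6 other listed Kruppel-like factors Klf5, Klf8 and Klf11 rose and Klf7, Klf15 and Klf16 fell, which gives 6 up and 6 down of 14. The share of these 6 called was 100%, beside 64.3% of all tested genes (32.2% higher and 32.1% lower). Klf15, known as a glucocorticoid-induced factor of muscle and liver metabolism, had 3, 0 and 0 reads in mNS and 605 reads over the GL261 libraries (10.2, 17.5 and 16.9 CPM); the ratio of scaled reads, GL261 over mNS, was 200 with an exact binomial 95% counting interval of 68.1 to 973. All 3 mNS reads were in mNS replicate 1, the passage 72 library, and without it the mNS libraries held 0 reads, so that the ratio rests on this library. Klf15 thus nearly reached the lower limit of the measurement in mNS, as Klf12 did in GL261. The fall of Klf7 was 1.70-fold and that of Klf16 1.46-fold, and Klf5, with 77 reads in mNS and 45 in GL261, was called at an adjusted p of 0.0261. Klf5 was not called when mNS replicate 2, mNS replicate 3 or GL261 replicate 2 was left out (limma adjusted p = 0.0998, 0.0678 and 0.0720), under quantile normalisation (0.182) or in DESeq2 (0.127). A long noncoding gene on the opposite strand, Gm26649, shares 39.3% of the exon bases of Klf7, and the sources used here do not say whether the authors counted by strand. Klf1, Klf14 and Klf17 were not among the listed genes.

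Of 4 listed Sp factors, relatives that bind the same GC boxes, 1 fell (Sp2, log2 difference -0.48, limma adjusted p = 0.00692). The share called was 25%, beside 64.3% of all tested genes. Sp1 had 222 ± 3 CPM in mNS and 206 ± 5.24 CPM in GL261 (SD, n = 3 each), a log2 difference of 0.11 with a 95% interval of -0.01 to 0.23 that was not called, and Sp3 had 145 ± 12.7 CPM in mNS and 145 ± 6.31 CPM in GL261, with an interval of -0.18 to 0.17. Sp4 was not called (-0.41, adjusted p = 0.0754). Sp1 and Sp4 were each called under 4 alternatives, and the difference between the Sp and Kruppel-like factors was not tested. The intervals of the ubiquitous Sp1 and Sp3 leave out differences of the size seen for Klf4, Klf12 and Klf15.

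Levels of different genes were set side by side as CPM per kilobase of merged exons (GENCODE M21). Klf6 had the highest level per length in both groups, 74.6 ± 6.81 CPM per kilobase in mNS and 31.1 ± 5.04 in GL261 (SD, n = 3 each), and its share of the summed level of the 14 listed Kruppel-like factors was 56.1 ± 0.386% in mNS and 30.6 ± 2.83% in GL261. Behind Klf6 the order differed. In mNS the next were Klf12 (12.9 ± 4.07 CPM per kilobase), Klf10 (11.7 ± 1.15) and Klf16 (10.9 ± 0.264), each overlapping in range with its neighbour in this order. In GL261 the next were Klf4 (21.2 ± 3.28 CPM per kilobase) and Klf16 (15.9 ± 1.2), without overlap, and Klf12 came last of 14, with a range that overlapped that of Klf8 before it. With the length of the longest transcript in place of merged exons, Klf10 (16 CPM per kilobase) stood before Klf12 (15.3) in mNS.

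Klf13 took place 5 in mNS (7.57 ± 0.476 CPM per kilobase) and place 4 in GL261 (7.24 ± 0.375), where its range overlapped with that of Klf10 and the longest transcript turned their order round. Klf4 held 20.8 ± 1.87% of the family's level per length in GL261; in mNS its share was 1.93 ± 0.152%. Klf12 held 9.59 ± 2.04% in mNS and 0.0579 ± 0.0352% in GL261. Klf2, Klf3 and Klf9 lay between 0.796 and 2.84 CPM per kilobase in mNS and between 2.62 and 3.18 in GL261, where the ranges of Klf3 and Klf9 and of Klf9 and Klf2 overlapped. The summed level of the 8 members was 129, 111 and 105 CPM per kilobase in mNS and 85.8, 72.4 and 67.9 in GL261.

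**Figure D4:**
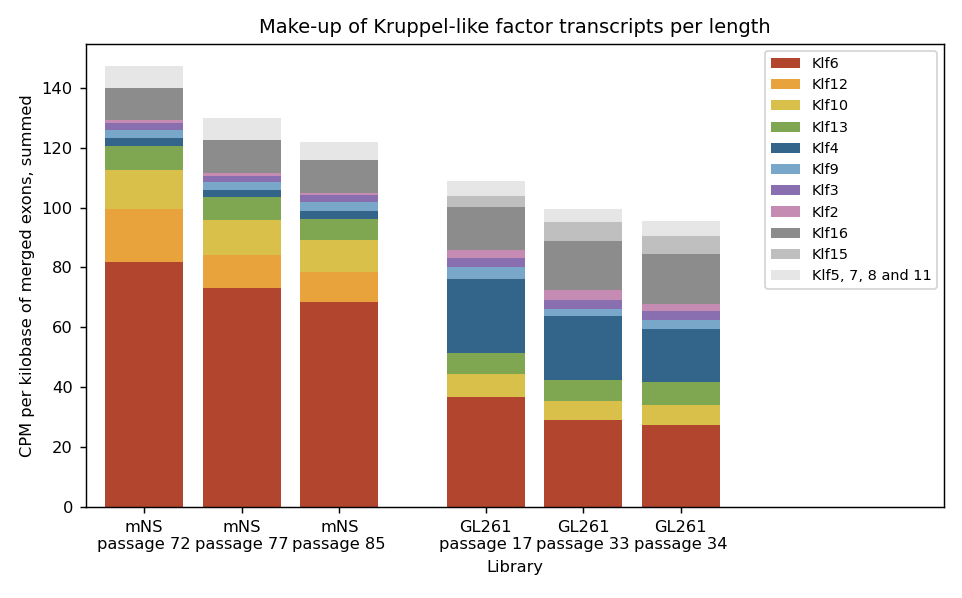
Summed CPM per kilobase of merged exons for the 14 listed Kruppel-like factors in each library (stacked bars, mNS on the left and GL261 on the right, colours for genes). Klf6 is the largest part of every bar, Klf12 is visible in the mNS bars, and Klf4 is a large part of the GL261 bars and a small part of the mNS bars.

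Within each group the library of the lowest passage was the highest for most of the 8 members. Of the 6 other listed Kruppel-like factors, Klf7, Klf11 and Klf15 (on 3 reads) were highest in mNS passage 72. Klf8 and Klf11 were highest in GL261 passage 17. The summed level of these 6 genes, a different measure, was 66.8, 67.7 and 62.3 CPM in mNS at passages 72, 77 and 85. In GL261 it was 78.5, 88.1 and 90.8 CPM at passages 17, 33 and 34. The passage 72 library was the highest of the mNS libraries for 7 of 8 members, all but Klf9, where it was the highest for 41.4% of all tested genes. The passage 17 library was the highest of the GL261 libraries for 6 of 8 members, all but Klf2 and Klf13, where it was the highest for 38.6% of all tested genes. Klf3, Klf4, Klf6, Klf10 and Klf12 were highest in both, 62.5% of the members beside 16.2% of all tested genes. Some of these places were near ties. Klf3 had 36.9 CPM in GL261 passage 17 and 36.8 CPM in passage 34. Klf4 had 8.08 CPM in mNS passage 72 and 7.79 CPM in passage 85. Klf12 in GL261 rests on 10, 3 and 4 reads. These are counts over 1 library per passage, take no account of the size of a difference and carry no test.

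The spread within a group was small for most members. The highest mNS library exceeded the lowest by 1.07-fold to 1.21-fold for Klf3, Klf4, Klf6, Klf9, Klf10 and Klf13, by 1.67-fold for Klf2 and by 1.75-fold for Klf12. In GL261 the corresponding ratio was 1.10 to 1.51 for all members but Klf12, whose 3.32 rests on 10, 3 and 4 reads. Among 15 tested immediate early genes, the class to which several Kruppel-like factors belong, 9 were highest in mNS passage 72, 6 in GL261 passage 17 and 3 in both. These shares are 60%, 40% and 20%, beside 41.4%, 38.6% and 16.2% of all tested genes, so the last 2 lie near the background. The part of handling, passage or RNA quality in the high values of these 2 libraries was not tested.

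**Figure D5:**
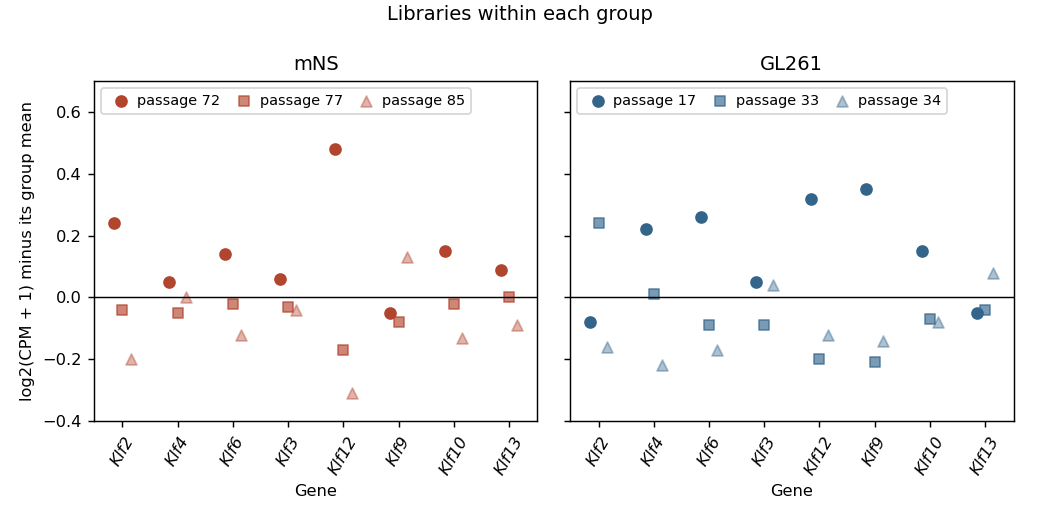
Deviation of each library from the mean of its group in log2(CPM + 1) for the 8 members, in mNS (left panel, passages 72, 77 and 85) and GL261 (right panel, passages 17, 33 and 34). Circles, the lowest passages, lie above the other shapes for 7 of 8 members in mNS and for 6 of 8 in GL261.

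Immediate early genes as a class went both ways between the groups, 5 of 15 rising and 6 falling (73.3% called, beside 64.3% of all tested genes; median log2 difference -0.04). Atf3 (35.0 ± 12.6 CPM in mNS and 12.5 ± 2.83 CPM in GL261), Ier3 (log2 difference 1.56) and Myc (173 ± 22.4 CPM in mNS and 103 ± 4.75 CPM in GL261) rose with Klf6 and Klf10, and Fosl1, an AP-1 subunit, fell (-2.07). Of the pluripotency genes that work with Klf4 in stem cells 3 of 9 were listed: Tfcp2l1, which had 55.8 ± 11 CPM in mNS and 9.59 ± 2.54 CPM in GL261 (log2 difference 2.43, limma adjusted p = 7.81e-06), and Myc rose, and Sox2 was not called (184 ± 15.1 CPM in mNS and 181 ± 41 CPM in GL261). The share called of these 3 pluripotency genes was 66.7%, beside 64.3% of all tested genes. Pou5f1, Nanog, Esrrb, Zfp42, Prdm14 and Tbx3 were not among the listed genes.

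Of 13 genes reported as targets of these factors in other cells 11 were listed, of which 3 rose and 6 fell, or 81.8% called, beside 64.3% of all tested genes (32.1% lower). Their median log2 difference was -1.06, beside -0.00271. Nos3, the endothelial nitric oxide synthase gene that Klf2 activates in endothelium, had 36.7 ± 4.41 CPM in mNS and 0.832 ± 0.390 CPM in GL261 (log2 difference 4.38, limma adjusted p = 1.69e-07), opposite in direction to Klf2. The smooth muscle genes Acta2 and Tagln, which Klf4 represses in smooth muscle, fell as Klf4 did, to 11 and 8 reads over the mNS libraries, against 993 and 684 over the GL261 libraries. Tfap2a, the AP-2 alpha gene that Klf12 is named for repressing, had 2.12 ± 0.572 CPM in mNS and 7.4 ± 2.34 CPM in GL261 (limma adjusted p = 0.000633), opposite in direction to Klf12. Cdkn1a, the cell cycle inhibitor gene that Klf4 and Klf6 activate, was at 50.9 ± 3.19 CPM in mNS and 50.5 ± 9.43 CPM in GL261 (adjusted p = 0.869). Tfap2a and Cdkn1a were named after their values were seen, and the lists say nothing of control in these cells.

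The genes whose profile over the 6 libraries lay nearest to a member were found by the root mean square difference of log2(CPM + 1), each gene centred on its mean, among 8922 genes that averaged 10 CPM or more. Nearest to Klf10 was Aph1b (0.0269), nearest to Klf6 was Sh3kbp1 (0.0401) and Ccdc90a came second (0.0540). Klf4 lay nearest to Fam26e (0.0893) and Lama5 (0.112), and Klf2 to Kitl (0.0822) and Trim59 (0.104). For Klf12 the nearest were the protocadherin gene Pcdh15 (0.224) and Vash1 (0.233), farther off than the genes nearest to the other members. The distance is not scaled to the spread of a gene. Klf12 spread 1.75-fold among the mNS libraries and 3.32-fold among the GL261 libraries, the latter on 10, 3 and 4 reads. The nearest to Klf9 were Cdk16 (0.0581) and Slc1a5 (0.0588), to Klf13 Nbr1 (0.0265) and Adrm1 (0.0289), and Ppil4 (0.0425) was second for Klf10. These distances describe 6 libraries and say nothing of shared function or control.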

How the data were processed

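Total RNA of 6 mouse glioma samples went through a stranded kit with removal of ribosomal RNA and was read from 1 end, per the series' design text. Tools are recorded without roles in the submitters' processing notes: TopHat2 (version 2), HTSeq (0.5.3p9) and edgeR (3.4.2), with build mm10. The authors deposited a normalised signal for each gene in each library; the name of the table gives CPM and the design text TMM factors, and columns sum to 968335 to 1037864. Its values are whole multiples of 1 step per column; divided by it, 100% came out whole within 0.001 reads, which gave the depths. Other reads were not used here.

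Groups were compared in R 4.3.3 by limma 3.58.1 (lmFit, eBayes with trend) on log2(CPM + 1), over 12006 genes that averaged 1 CPM or more. Recovered reads were tested with edgeR 4.0.16 (quasi-likelihood: 7651 genes called; exact test: 7495) and DESeq2 1.42.0 (7353), beside 7714 in limma. The fits were tested on simulated data. Members and lists were chosen with earlier results of these data known. Named are all family genes, the 4 largest differences among the called genes of each list (or its 2 most abundant genes where it had no call), the cell type markers a sentence needs and the 2 nearest profiles per member. Nearest profiles left out numbered gene models, Rik clones, small RNAs, ribosomal protein and mitochondrial genes; those of Klf3 are not reported here. Positions and lengths come from GENCODE M21 (GRCm38), promoters from RefSeq (GRCm38.p6; 7 of 8 members matched). Python 3.11.15, pandas 2.3.3, scipy 1.17.1 and matplotlib 3.10.9 were used.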

Additional observations from a re-analysis of the deposited data

How the results depend on the processing

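All 6 called members kept their direction under all 21 alternatives and their call under all but the test against a 2-fold change, except that Klf2 has no value with a filter at a mean of 5 CPM. Under that test Klf2 (-1.24, adjusted p = 0.653), Klf3 (-0.53, 1), Klf6 (1.26, 0.180) and Klf10 (0.75, 1) were not called, which leaves 1 member called higher and 1 lower in place of 3 and 3. Over all alternatives the log2 difference ranged from 5.74 to 7.76 for Klf12, from -3.05 to -2.78 for Klf4, from -1.71 to -1.12 for Klf2, from -0.58 to -0.45 for Klf3, from 1.18 to 1.39 for Klf6 and from 0.68 to 0.84 for Klf10. Klf9 and Klf13 were never called; Klf9 ranged from -0.22 to 0.06 when 1 library was left out (0.06 without GL261 replicate 1) and, without both lowest passages, an alternative chosen after seeing the data, Klf9 was 0.08 and Klf13 -0.01. Sp3, never called, was 0.09 with columns rescaled to a common sum, 0.06 under quantile normalisation, 0.00 in both edgeR tests and 0.01 in DESeq2, and ranged from -0.07 to 0.05 when 1 library was left out (0.02, 0.05 and 0.03 without mNS replicate 2, mNS replicate 3 and GL261 replicate 2). Sp1 was called with columns rescaled to a common sum, under quantile normalisation, with array weights and without both lowest passages (adjusted p = 0.00944, 0.00812, 0.00298 and 0.0331), and Sp4 under quantile normalisation, with array weights, without mNS replicate 1 and without both lowest passages (0.0312, 0.00248, 0.0263 and 0.00477). Array weights came from an estimate that stopped before convergence. With the length of the longest transcript, Klf3 had 4.66 and 6.85 CPM per kilobase in mNS and GL261, Klf10 16.0 and 9.38 and Klf13 8.91 and 8.53. The test against a 2-fold change called 1414 genes in all, beside 7714. No paired analysis was possible because the labels give passages and no replicate numbers shared between the groups. Counts limit Klf2, Klf5, Klf12 in GL261 and Klf15 in mNS, which rest on few reads.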
